A study of Mus musculus with 6 samples.

Results

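Skeletal muscle contractile genes were followed in RNA from whole femurs, a tissue to which pieces of the thigh muscles can stay attached. The genes were 37 members, taken by symbol and sorted by the fiber type that uses them: 14 of fast fibers, 11 of slow fibers, 2 of developing fibers and 10 shared by fast and slow fibers. All 37 had a row among the 23733 genes of the count table, and all 37 were among the 18126 genes with enough counts to be tested. Tpm1, Tpm2, Tpm3 and Atp2a2 are also widely expressed outside skeletal muscle, so the amount of muscle was read from the other 33.

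The femurs came from 5-week-old mice of a model of osteogenesis imperfecta type V, a brittle bone disease, with 3 mutant and 3 control mice and 1 library per mouse. All mice were kept on a C57BL/6 background. Mutant mice were Rosa26 mIfitm5/+ Acan-Cre ERT2: they carried 1 copy of a mutant Ifitm5 cDNA in the Rosa26 locus together with a tamoxifen-dependent Cre recombinase under the control of aggrecan (Acan), the main proteoglycan gene of chondrocytes. Tamoxifen was injected at postnatal day 10 by the account of the RNA libraries, and over days 10 to 15 by the general methods and the series text, so that Cre activated the mutant allele in chondrocytes, the cells this driver marks. For the models of the study in general, controls were littermates with Cre alone, the knocked-in allele alone or neither. Which of these each of the 3 control mice was, and whether they received tamoxifen, is not given in the sources used here. All bones were pulverized whole, and for the RNA libraries the removal of muscle was not described.

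A muscle fiber contracts when calcium released from the sarcoplasmic reticulum binds troponin on the actin filament and lets myosin heads pull on it. Fast and slow fibers use different genes for the same parts: myosin heavy chains Myh4, Myh1 and Myh2 mark type IIB, IIX and IIA fibers and Myh7 marks slow type I fibers, while Myh3 and Myh8 are the embryonic and perinatal forms. Mouse limb muscle is mostly fast, and slow fibers are concentrated in a few postural muscles.

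Values per library are given in the order of mouse 1, 2 and 3 of a group. The deposited estimated counts summed to between 11473467 and 17058572 per library. Ifitm5, whose rows cannot separate the mutant cDNA from the gene itself, was at 31.8, 31.3 and 47.6 CPM, counts scaled to a common library total with edgeR's TMM factors, in controls and at 23.4, 36.7 and 36.0 CPM in mutants, so it did not check the labels. The tissue labelled whole bone carried its defining markers, with Col1a1 at 4.47% to 11.3% of all counts. The 11 heart muscle markers, 4 of them with enough counts to be tested, summed to 19.6 to 259 CPM in controls and to 41.5 to 162 CPM in mutants. Nearly all of this was Actc1, cardiac actin, which skeletal muscle also expresses, at 184, 254 and 16.3 CPM in controls and 108, 156 and 35.2 CPM in mutants. Myh6, Tnni3, Tnnt2 and Mybpc3, whose products are largely particular to heart, were below 1 CPM in every library, and Myl4 reached 3.96 CPM.

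Promoter sequences are shown for 3 members, as a gene of each main class with a TATAAA box just before its start: Acta1 (shared, skeletal alpha-actin), Myh4 (fast, type IIB heavy chain) and Tnnt1 (slow, troponin T). Each run is the 110 bases just before the transcription start given by RefSeq, 5′ to 3′ on the strand of the gene, and was placed on GRCm39 by an exact match of the RefSeq window (GRCm38.p6): chr8:124621515-124621624 on the minus strand for Acta1, chr11:67128528-67128637 on the plus strand for Myh4 and chr7:4518975-4519084 on the minus strand for Tnnt1. Capitals mark a CArG box, the letters bound by serum response factor, a TATAAA box, or an E-box of the form CANNTG, the letters bound by MyoD and its relatives, on either strand.
Acta1: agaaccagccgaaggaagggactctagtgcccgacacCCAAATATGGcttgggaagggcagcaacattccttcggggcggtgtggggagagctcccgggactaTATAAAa
Myh4: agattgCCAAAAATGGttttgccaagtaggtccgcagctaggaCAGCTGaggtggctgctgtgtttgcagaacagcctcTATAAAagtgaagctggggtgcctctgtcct
Tnnt1: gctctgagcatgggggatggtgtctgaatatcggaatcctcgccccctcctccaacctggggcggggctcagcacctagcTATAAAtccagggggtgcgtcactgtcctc
Of the 37 members, 31 had a RefSeq window, and Actn3, Atp2a2, Myoz1, Neb, Tnni2 and Tnnt3 had none. In the 250 bases before the start, an E-box stood in 34 of the 38 windows of members (89.5%) and in 66.2% of all 32851 windows. The CArG box stood in 3 windows of members (Acta1, Myh4 and Myl3, 7.89%) and in 1.47% of all windows. A TATAAA box was found for 8 members, in 21.1% of their windows and in 12.4% of all, and the MEF2 site, searched as its consensus, for Myoz2 and Ttn, in 5.26% of members' windows and in 0.508% of all. These are letter matches only.

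Muscle RNA was present in every femur library, and its amount differed more between mice of a group than between the groups. The 33 members took 1.93%, 2.94% and 0.443% of all counts in controls and 2.84%, 4.10% and 0.946% in mutants. Mouse 3 was the lowest of its group and mouse 2 the highest, in controls and mutants alike, and the highest library held 9.24 times the share of the lowest. Group means were 1.77% ± 1.26 in controls and 2.63% ± 1.59 in mutants (SD, n = 3). On the log2 scale the mutant mean was 0.71 above the control mean, and the groups overlapped (two-sided exact permutation test, p = 0.60, where 0.1 is the smallest value 3 against 3 can give). The difference was -0.10 without control mouse 3. Compared number by number, the share was 1.47, 1.39 and 2.13 times higher in the mutant library (exact sign-flip test over 3 pairs, p = 0.25, the smallest it can give). In bulk tissue more muscle fibers and more RNA per fiber cannot be told apart.

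**Figure D1:**
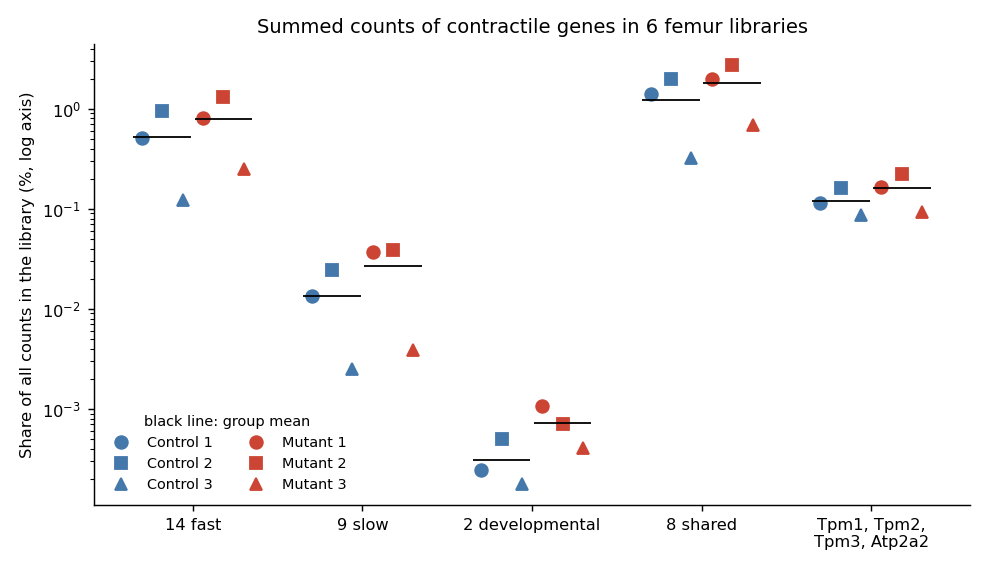
Share of all counts (percent, log axis) taken by each class of contractile genes in the 6 femur libraries; blue points are control mice, red points mutant mice, the shape gives the mouse number and black lines are group means (n = 3). The 14 fast genes ran from 0.122% in control mouse 3 to 1.32% in mutant mouse 2, and the widely expressed Tpm1, Tpm2, Tpm3 and Atp2a2 spread least.

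Ttn, the giant spring of the sarcomere, had the most counts of any member. It took 1.06%, 1.35% and 0.234% of all counts in controls and 1.35%, 1.77% and 0.518% in mutants. Per 1000 counts of the 33 members, Ttn held 431 to 547. Per kilobase of transcript its mean level was 97.2 CPM per kb, against 1010 for Acta1. The 14 fast members together took 0.122% to 0.944% in controls and 0.250% to 1.32% in mutants. The 9 slow members left after Tpm3 and Atp2a2 were set aside took 0.00250% to 0.0246% in controls and 0.00388% to 0.0392% in mutants, far below the fast members in every library.

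The contractile genes varied through the libraries together. Of the 37 members, 29 were highest in mutant mouse 2, as were 14.7% of all genes tested, and 31 were lowest in control mouse 3, as were 22.8% of all genes tested. All 14 fast members and all 10 shared members had their maximum in mutant mouse 2, against 4 of the 11 slow members. A fast member differed by a median of 10.8-fold between its highest and lowest library, a slow member by 17.9-fold and a shared member by 9.64-fold. The median over all genes tested was 1.82-fold.

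**Figure D2:**
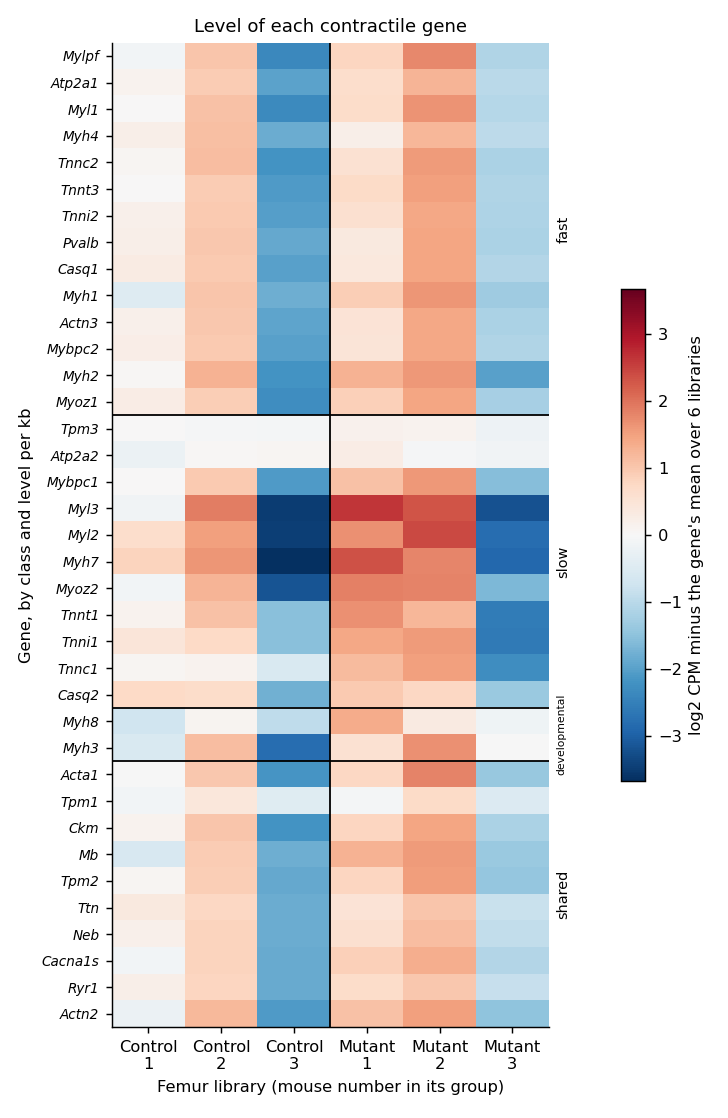
Level of each of the 37 genes in each library, as log2 CPM minus the mean of the gene over the 6 libraries (red above, blue below); rows are grouped by class and ordered by mean level per kb. Control mouse 3 and mutant mouse 3 are blue for nearly all rows, and the pale rows Tpm3, Atp2a2 and Tpm1 belong to genes that other cells of the femur also express.

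In the comparison of mutant with control mice, no member passed the test. The quasi-likelihood test of edgeR called 0 of 37 members at an adjusted p under 0.05 (Benjamini-Hochberg over all genes tested), as it called 0% of all genes. DESeq2 also called 0 of 37, where it called 0.627% of the genes it tested. At an unadjusted p under 0.05, 1 of 37 was higher in mutants (Myh8), against 5.06% of all genes. For 0 of 37 did all mutant libraries stand above all control libraries, which was so for 6.54% of all genes. The estimates nevertheless shared a sign, with 37 of 37 log2 differences above 0 and a median of 0.64, where the median over all genes tested was 0.00. With libraries scaled by their totals alone these medians were 0.80 and 0.16. The median of the members rested on single mice: leaving out mutant mouse 2 gave 0.03, leaving out control mouse 3 gave 0.15, and leaving out control mouse 2 gave 1.36. By class it was 0.48 for fast, 0.79 for slow, 1.03 for developmental and 0.60 for shared members.

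Same-numbered libraries were then compared. The sample titles number the mice 1 to 3 in each group. Libraries with the same number deviated from their group means together, so the number was also fitted as a block. The pairing was thus taken in part from these data. Control mouse 2 and mutant mouse 1 also deviated together (Pearson r = 0.202, against 0.154 for the mice numbered 1). With the replicate block, edgeR called 15 of 37 members higher in mutants and 0 lower, against 2.70% of all genes higher and 0.623% lower. The 15 were 9 fast, 2 slow and 4 shared members. Of 37 members, 30 were higher in the mutant library of all 3 pairs, as were 20.6% of all genes. Without pair 3, the mice with the least muscle, 0 members were called (smallest adjusted p = 0.0568, edgeR) where 0.782% of all genes were called higher, while 37 of 37 differences stayed above 0 with a median of 0.63, against 0.61 with all pairs. Without pair 1 there were 15 (11 of them among the 15 above, 1.40% of all genes), and without pair 2 there were 17 (13 among the 15 above, 3.00% of all genes). What the numbers stand for was not given.

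**Figure D3:**
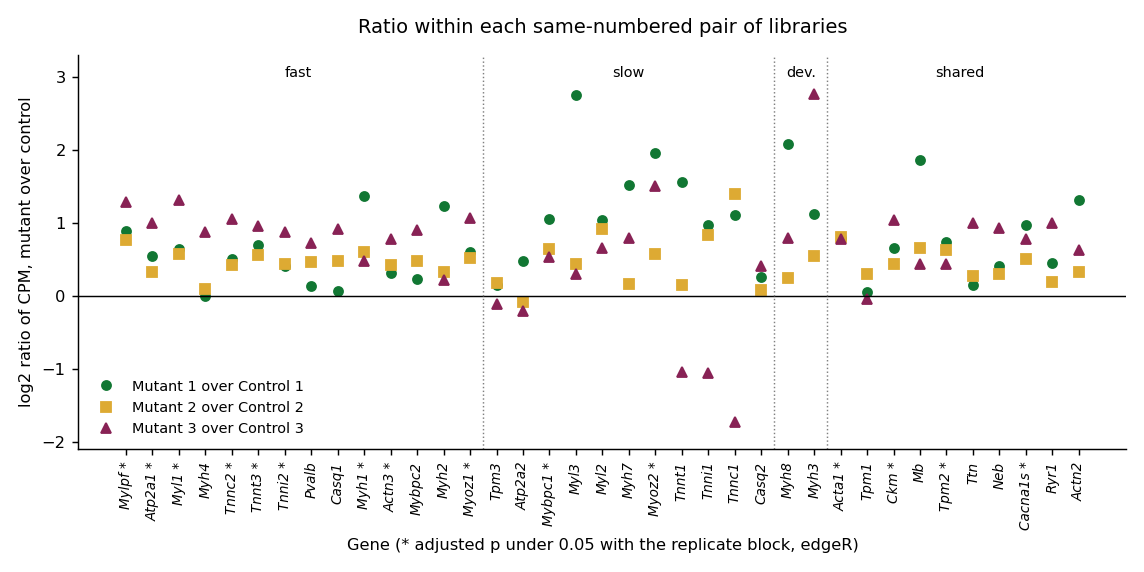
Log2 ratio of CPM, mutant over control, within each same-numbered pair of libraries for the 37 genes, ordered by class and level per kb; asterisks mark the 15 genes with an adjusted p under 0.05 in edgeR with the replicate block. Fast and shared genes lie above 0 in nearly all pairs, while Tnnt1, Tnni1 and Tnnc1 lie below 0 in pair 3.

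Among the fast myosin genes, the light chains gave the clearest difference between paired libraries. Mylpf, the fast regulatory light chain and the fast member with the highest level per kb, was at 197, 420 and 40.3 CPM in controls and at 363, 711 and 97.6 CPM in mutants. The mutant library was 1.84, 1.69 and 2.42 times higher in pairs 1, 2 and 3. Its log2 difference was 0.84 ± 1.03 (SE) without the block (adjusted p = 0.844, edgeR) and 0.97 ± 0.12 with it (adjusted p = 0.00211, edgeR). Myl1, the fast essential light chain, was at 306, 626 and 58.9 CPM in controls and at 476, 932 and 146 CPM in mutants (0.83 ± 0.15 with the block, adjusted p = 0.0135, edgeR). The groups overlapped for both genes, since control mouse 2 stood above mutant mice 1 and 3.

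The heavy chains were less uniform. Myh4, the type IIB motor, was at 1712, 3175 and 416 CPM in controls and at 1706, 3390 and 759 CPM in mutants. Pairs 1 and 2 were therefore nearly level for Myh4 and only pair 3 differed by a wide margin (0.996, 1.07 and 1.82 times), and it was not called with the block (adjusted p = 0.402, edgeR). Myh1, the type IIX motor, was at 280, 790 and 113 CPM in controls and at 720, 1197 and 157 CPM in mutants. Its ratio was widest in pair 1 (2.57, 1.51 and 1.38 times), and it was called with the block (0.81 ± 0.17, adjusted p = 0.0321, edgeR). Myh2, the type IIA motor, was at 169, 398 and 35.7 CPM in controls and at 396, 498 and 41.4 CPM in mutants (adjusted p = 0.162 with the block, edgeR).

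These heavy chains are neighbors, and they share sequence, so their counts are less certain where sequence is shared. Sequence sharing was not examined for the other members. Myh3, Myh2, Myh1, Myh4 and Myh8 lie in this order on the plus strand of chromosome 11 between 66969126 and 67199462 (GRCm39), and Myh7 lies on chromosome 14. Of all 50-base windows of the main transcript, 21.0% for Myh1, 23.9% for Myh2, 18.8% for Myh4 and 19.9% for Myh8 occurred in another heavy chain transcript, against 3.66% for Myh3. For Myh7 it was 22.6%, shared with the heart gene Myh6. Their counts were not all whole numbers, as for reads divided between genes. The same held for members outside this family, such as Ttn, Acta1, Neb and Atp2a1, so it did not set the heavy chains apart. Of the 37 members, 20 also overlap another counted gene on the other strand, and the sources used here do not say whether counting used strand.

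The fast troponin genes followed the light chains. Tnnt3, the fast troponin T that anchors the complex to tropomyosin, was at 308, 588 and 72.9 CPM in controls and at 500, 870 and 141 CPM in mutants (0.74 ± 0.12 with the block, adjusted p = 0.00774, edgeR). Tnnc2, the fast calcium sensor, was at 136, 287 and 28.3 CPM in controls and at 193, 383 and 58.4 CPM in mutants (0.64 ± 0.13, adjusted p = 0.0249, edgeR). Tnni2, the fast inhibitory subunit, was at 99.0, 170 and 21.5 CPM in controls and at 131, 230 and 39.3 CPM in mutants (0.56 ± 0.12, adjusted p = 0.0293, edgeR). All 3 fast troponin genes were higher in the mutant library of every pair, and for all 3 the ratio was widest in pair 3.

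The remaining fast members handle calcium or belong to the filaments and the Z disc. Atp2a1, the calcium pump of fast fibers, was at 1273, 2240 and 299 CPM in controls and at 1846, 2795 and 591 CPM in mutants (0.61 ± 0.15 with the block, adjusted p = 0.0454, edgeR). Casq1, the calcium-binding protein of the fast reticulum, was at 177, 277 and 36.2 CPM in controls and at 186, 388 and 67.9 CPM in mutants, and was not called (adjusted p = 0.115 with the block, edgeR). Myoz1, a fast Z-disc protein that binds calcineurin, was at 39.6, 62.1 and 6.78 CPM in controls and at 60.2, 89.0 and 14.2 CPM in mutants (0.70 ± 0.14, adjusted p = 0.0226, edgeR). The other 3 fast members were the Z-disc gene Actn3, the calcium buffer Pvalb and the myosin-binding Mybpc2, with within-pair ratios between 1.10 and 1.87. Of these, Actn3 was called with the block (adjusted p = 0.0448, edgeR).

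The slow myosin genes were scarce, and mouse 3 of each group had few of their counts. Myh7, the slow heavy chain, was at 23.3, 41.2 and 1.05 CPM in controls and at 66.8, 46.2 and 1.82 CPM in mutants. Both libraries of pair 3 lay more than 10-fold below the others of their group, and the highest library held 63.7 times the level of the lowest. The slow light chains Myl2 and Myl3, named here after their values were seen, behaved in the same way. Myl2 had 76, 133 and 6 counts in controls and 163, 303 and 9 counts in mutants, and Myl3 had 46, 177 and 6 counts in controls and 326, 290 and 7 counts in mutants. With so few counts in pair 3, a difference between its mice was not detectable for these light chains at this depth.

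The slow troponins had few counts in every library. Tnnt1, the slow troponin T, had 30, 56 and 13 counts in controls and 93, 75 and 6 counts in mutants. For Tnni1, the slow inhibitory subunit, there were 32, 38 and 11 counts in controls and 66, 82 and 5 counts in mutants. Tnnc1, the calcium sensor of slow and heart muscle, had 16, 16 and 14 counts in controls and 36, 51 and 4 counts in mutants. The mutant library was higher in pairs 1 and 2 and lower in pair 3 for all 3 slow troponins (0.486, 0.478 and 0.301 times in pair 3), on at most 14 counts. None was called with the block (adjusted p = 0.699 for Tnnt1, 0.625 for Tnni1 and 0.744 for Tnnc1, edgeR).

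Of the slow members, Mybpc1 and Myoz2 were called with the block. Mybpc1, slow myosin-binding protein C, which fast fibers of the mouse also express, was at 83.0, 158 and 19.2 CPM in controls and at 172, 247 and 27.8 CPM in mutants (0.75 ± 0.12, adjusted p = 0.00868, edgeR). Myoz2, a Z-disc protein of slow and heart muscle, had within-pair ratios of 3.85, 1.49 and 2.83 (1.27 ± 0.28, adjusted p = 0.0345, edgeR). Casq2, the slow and cardiac form of calsequestrin, was at 12.1, 11.7 and 2.16 CPM in controls and at 14.3, 12.4 and 2.86 CPM in mutants, and was not called (adjusted p = 0.662 with the block, edgeR).

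Tpm3 and Atp2a2 varied little between libraries. Tpm3, slow tropomyosin in muscle and a cytoskeletal tropomyosin elsewhere, was at 146, 140 and 139 CPM in controls and at 162, 158 and 128 CPM in mutants. Atp2a2, the calcium pump of slow and heart muscle and of most other cells, was at 184, 219 and 223 CPM in controls and at 257, 207 and 193 CPM in mutants. Their highest and lowest libraries differed by 1.26-fold and 1.40-fold, where the other 9 slow members differed by 6.64-fold to 69.8-fold. In mouse 3 they stood at 139 and 128 CPM for Tpm3 and at 223 and 193 CPM for Atp2a2, close to the other mice. Neither was called with the block (adjusted p = 0.824 and 0.882, edgeR).

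The developmental heavy chains had the lowest levels per kb of all members. Myh8, the perinatal form, was at 2.00, 3.54 and 1.73 CPM in controls and at 8.47, 4.19 and 2.99 CPM in mutants. It was the member with an unadjusted p under 0.05 without the block (log2 difference 1.11 ± 0.46, adjusted p = 0.570, edgeR), and mutant mouse 1 alone stood well above the others. Myh3, the embryonic form, had 7, 21.9 and 2 counts in controls and 16, 39 and 13 counts in mutants. Relative to the adult heavy chains, Myh3 and Myh8 amounted to 0.119, 0.126 and 0.334 per 100 in controls and to 0.353, 0.141 and 0.405 per 100 in mutants, by counts per kb. The log2 ratio was 0.66 higher in mutants, and the groups overlapped (exact permutation test, p = 0.20, 0.80 after adjustment over 10 measures of make-up).

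Among genes shared by all fibers, Acta1 and Cacna1s gave the smallest p with the block. Acta1, the actin of the thin filament and the member with the highest level per kb, was at 1124, 2262 and 253 CPM in controls and at 1937, 3977 and 436 CPM in mutants. The mutant library was 1.72, 1.76 and 1.72 times higher in pairs 1, 2 and 3, the most even ratio of the genes described here (0.79 ± 0.12 with the block, adjusted p = 0.00630, edgeR). Cacna1s, the voltage sensor of the T-tubule, was at 77.1, 147 and 23.1 CPM in controls and at 151, 208 and 39.5 CPM in mutants (0.74 ± 0.12, adjusted p = 0.00774, edgeR). Ckm, the creatine kinase that rebuilds ATP at the M band, was at 596, 1100 and 119 CPM in controls and at 942, 1488 and 244 CPM in mutants (0.71 ± 0.14, adjusted p = 0.0171, edgeR).

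The tropomyosins of this class split. Tpm2, muscle beta-tropomyosin, was at 277, 500 and 73.0 CPM in controls and at 458, 776 and 98.7 CPM in mutants (0.60 ± 0.11 with the block, adjusted p = 0.0152, edgeR). Tpm1, alpha-tropomyosin, was at 602, 862 and 478 CPM in controls and at 625, 1059 and 464 CPM in mutants and was not called (adjusted p = 0.741, edgeR). Its libraries spanned 2.28-fold against 10.6-fold for Tpm2. The other 5 shared members were Actn2 of the Z disc, the long filament genes Ttn and Neb, the oxygen carrier Mb and the calcium release channel Ryr1. Within pairs their ratios lay between 1.11 and 3.63, all above 1, and none passed the test with the block (adjusted p between 0.0590 and 0.230, edgeR).

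The make-up of the muscle was compared apart from its amount. Myh4 supplied most of the adult heavy chain RNA in every femur, 81.4%, 75.8% and 77.4% in controls and 63.5%, 70.4% and 82.4% in mutants, by counts per kb. Mutant mouse 1 had the lowest Myh4 share and mutant mouse 3 the highest, on opposite sides of all controls. The Myh1 share was 10.5%, 14.9% and 16.6% in controls and 21.2%, 19.6% and 13.4% in mutants. For Myh2 it was 7.05%, 8.32% and 5.81% in controls and 12.9%, 9.06% and 3.94% in mutants. Slow Myh7 held 1.07%, 0.956% and 0.189% in controls and 2.41%, 0.931% and 0.190% in mutants. Mutant mouse 1 was thus the femur with the most Myh1, Myh2 and Myh7 relative to Myh4.

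No measure of make-up separated the groups. Mean Myh4 share was 78.2% ± 2.86 in controls and 72.1% ± 9.59 in mutants (SD, n = 3, exact permutation test, p = 0.40). The 9 slow members amounted to 2.35, 2.44 and 2.02 per 100 of the fast members in controls and to 4.27, 2.69 and 1.19 per 100 in mutants, by counts per kb. Controls were close to each other by this sum, and mutants lay on both sides of them. Without Mybpc1, which fast fibers also express, the values were 1.32, 1.41 and 0.949 per 100 in controls and 2.79, 1.53 and 0.418 in mutants. The Myh7 share alone spread more widely among controls, at 1.07%, 0.956% and 0.189%. With all 9 slow members, the log2 ratio of slow to fast differed by 0.08 between the groups (exact permutation test, p = 0.80). In pairs 1, 2 and 3 it differed by 0.86, 0.14 and -0.76. For each of the 10 measures the adjusted p was 0.80, and 3 against 3 mice cannot reach a p below 0.1.

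Pairs of isoforms that fill the same place in the sarcomere gave the same order of mice only in part. There were 2.69, 1.93 and 3.16 counts of Tnni1 per 100 of Tnni2 in controls and 3.99, 2.53 and 0.826 in mutants. Tnnt1 stood at 0.809, 0.822 and 1.10 per 100 of Tnnt3 in controls and at 1.47, 0.612 and 0.276 in mutants. For Tnnc1 to Tnnc2 the values were 0.979, 0.481 and 3.05 in controls and 1.48, 0.946 and 0.444 in mutants, and for Casq2 to Casq1 they were 6.80, 4.23 and 5.96 in controls and 7.71, 3.20 and 4.20 in mutants. Mutant mouse 3 was lowest for all 3 troponin pairs, on 4 to 6 counts of each slow gene, and mutant mouse 1 was highest for all but Tnnc1. The mutant minus control difference of the log2 ratio was -0.32, -0.52, -0.40 and -0.24 for these pairs in this order, and the groups overlapped for each (exact permutation test, p = 0.80 for Tnni and 0.60 for the other pairs).

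**Figure D4:**
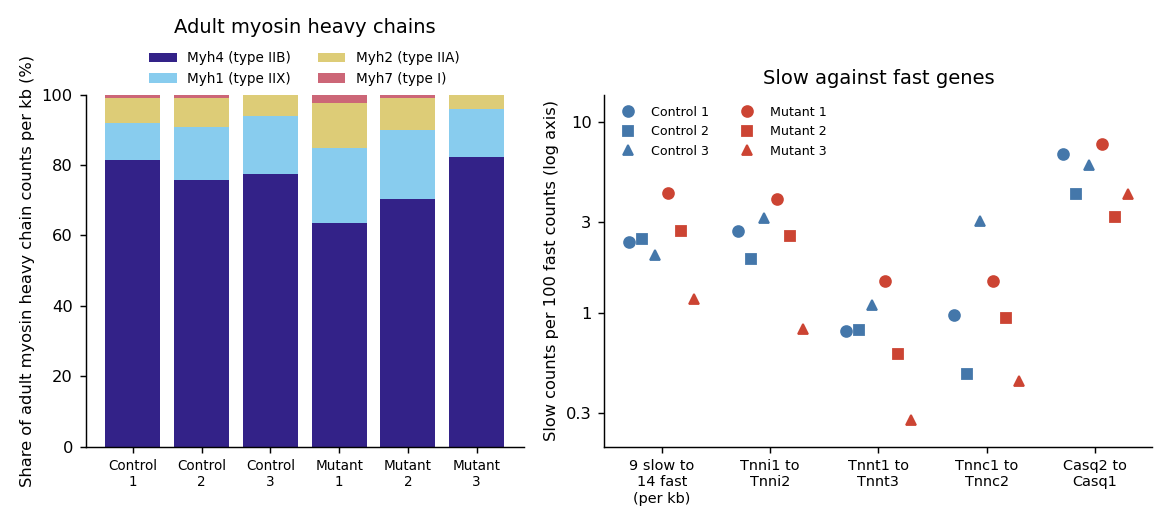
Left, share of each adult myosin heavy chain in the summed counts per kb of the 4 genes (percent, stacked to 100) in each library; right, slow counts per 100 fast counts (log axis) for the summed members and for isoform pairs, with blue for control and red for mutant mice and the shape giving the mouse number. Mutant mouse 1 has the smallest Myh4 share, 63.5%, and mutant mouse 3 the fewest slow counts per fast count, 1.19 per 100.

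Once each library was scaled to its own muscle RNA, the fast and shared genes varied less by median than the slow ones. Per 1000 counts of the 33 members, the median fast member differed by 1.47-fold between its highest and lowest library, the median shared member by 1.65-fold and the median slow member by 6.56-fold. Without the widely expressed Tpm3 and Atp2a2 (7.66-fold and 9.36-fold) the slow median was 6.39-fold. The 33 members are themselves the scale, with Ttn alone at 431 to 547, so evenness of the most counted genes is partly built in. Atp2a1 held 62.6 to 71.5 per 1000 over all 6 libraries and Neb, the ruler of the thin filament, 76.0 to 85.2. Myl3 was the most variable, from 0.0507 per 1000 in mutant mouse 3, on 7 counts, to 1.00 in mutant mouse 1.

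Other genes of muscle showed the same pattern among mice. Of 78 genes in 5 further lists, 72 were tested, edgeR called 0 without the block, and 22 were higher and 0 lower with it, which is 22 of 72 against 2.70% of all genes. The median log2 difference of these genes was 0.57 without the block. With pair 3 left out, 1 of 72 was called, against 0.782% of all genes, and 68 of 72 differences were above 0 with a median of 0.60, against 0.64 with all pairs. The summed level of the Z disc and M band list was 1313, 2359 and 415 CPM in controls and 2398, 3060 and 640 CPM in mutants. As for the contractile genes, mouse 3 was the lowest and mouse 2 the highest of each group.

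Calls came from 4 of these lists. Of the Z disc and M band genes 9 of 23 were higher with the block, led by Klhl41, a partner of nebulin (log2 difference 0.89 ± 0.11, adjusted p = 0.00175, edgeR), Myom2, an M-band protein (0.73 ± 0.12), and Des, the intermediate filament desmin (0.76 ± 0.13). Of the genes of excitation-contraction coupling 6 of 17 were higher, led by the reticulum genes Tmem38a (0.79 ± 0.13), Trdn (0.66 ± 0.12) and Srl (0.58 ± 0.11). Of the energy metabolism genes 6 of 15 were higher, among them muscle enolase Eno3 (0.70 ± 0.13), the insulin-responsive glucose transporter Slc2a4 (0.81 ± 0.17) and phosphoglycerate mutase Pgam2 (0.64 ± 0.13).

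Genes of muscle stem cells and of the nerve contact form short lists, and several had few counts. Their calls therefore do not set them apart from all genes. Of 11 tested myogenic regulators and satellite cell genes 1 was called with the block, where 2.70% of all genes were called higher. It was Myf6, a regulator kept on in adult fibers, at 4.16, 13.0 and 1.11 CPM in controls and 9.74, 21.4 and 3.44 CPM in mutants (1.11 ± 0.25, adjusted p = 0.0326, edgeR). The summed level of that list spanned only 118 to 182 CPM over the 6 libraries. Vgll2, a cofactor of muscle genes, came next and was not called (1.14 ± 0.30, adjusted p = 0.0665 with the block, edgeR). Cdh15, the cadherin of satellite cells, had a difference in the other direction and was not called either (-0.65 ± 0.19, adjusted p = 0.0881 with the block, edgeR). At the neuromuscular junction 0 of 6 tested genes were called with the block, against the same 2.70%. The receptor subunit Chrnb1 had the smallest p (adjusted p = 0.265 with the block, edgeR), followed by Dok7 and Musk. These 6 all had log2 differences above 0, with a median of 0.69 without the block, and the list summed to 14.4, 18.5 and 5.86 CPM in controls and 27.0, 26.4 and 7.79 CPM in mutants.

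Markers of other tissues were also compared, and their part in the muscle result was not tested. All 6 red cell markers were higher in mutants with the block, where 2.70% of all genes were higher. Without the block, edgeR called 0 of 6, as it called 0% of all genes, and DESeq2 called 0 of 6. The groups overlapped for each of these markers. Their summed level was 261 to 778 CPM in controls and 668 to 4493 CPM in mutants. All 6 neutrophil markers were also higher with the block. DESeq2 called all 6 without it, where it called 0.627% of the genes it tested. They summed to 239 to 485 CPM in controls and 856 to 1527 CPM in mutants. Bone markers, 6 of 6 with a log2 difference at or below 0 and 0 called, summed to 85767 to 124076 CPM in controls and 42672 to 77080 CPM in mutants. Nearly all of this sum was Col1a1, at 86037, 82606 and 119340 CPM in controls and 40591, 64418 and 73351 CPM in mutants. The groups overlapped for every other bone marker, and Bglap and Bglap2 had log2 differences of -0.18 and -0.00. The 5 cartilage markers summed to 1323 to 1701 CPM in controls and 1866 to 5642 CPM in mutants. Of these, 0 were called by edgeR and 4 of 5 by DESeq2, against the same 0.627%. Tendon markers summed to 330 to 725 CPM in controls and 563 to 859 CPM in mutants with 0 of 5 called, and adipocyte, smooth muscle and Schwann cell markers also had 0 called. No marker of these lists that was tested was at 0 in a library.

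**Figure D5:**
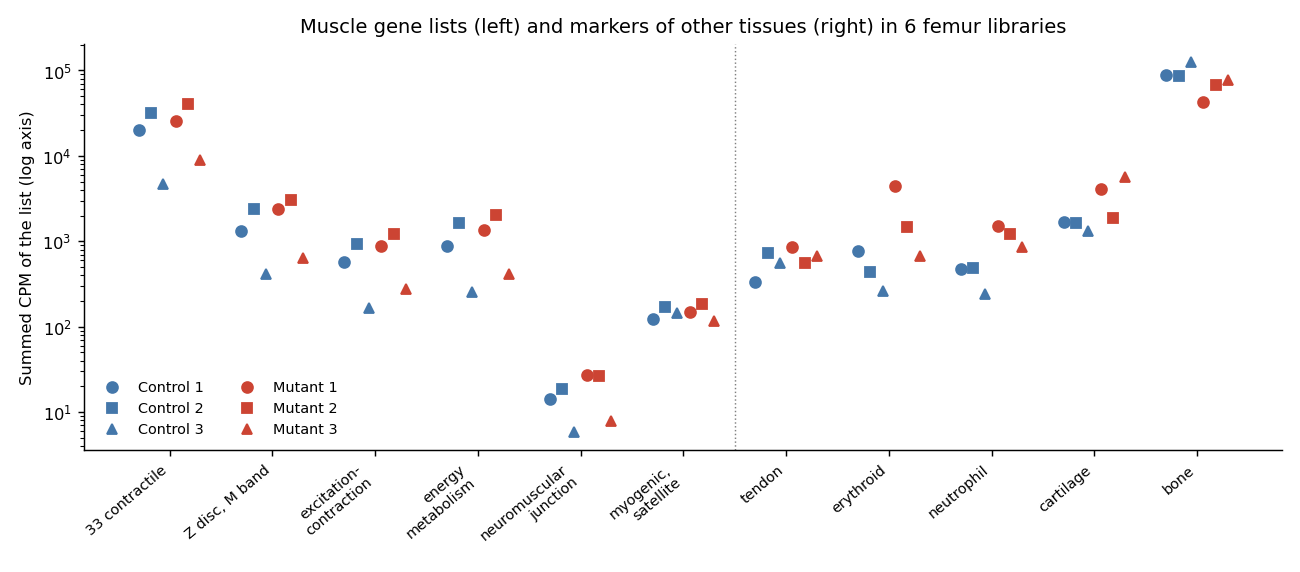
Summed CPM (log axis) of the 33 contractile genes, of 5 other muscle lists and, right of the dotted line, of marker lists of other tissues in the 6 libraries; blue is control, red is mutant and the shape gives the mouse number. Muscle lists fall to their lowest in mouse 3 of each group, apart from the myogenic and satellite cell list. That list is nearly flat at 118 to 182 CPM, and its lowest control is mouse 1.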

How the data were processed

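The authors extracted RNA from pulverized femurs with TRIzol, depleted rRNA, sequenced it, aligned reads with STAR to mm39 and used Partek. The deposited table holds their estimated counts per Ensembl gene (70.7% whole numbers), rounded here for count tests. No column was left out. Symbols, positions and lengths (main transcript) came from GENCODE vM39 for 23572 of 23733 IDs.

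Mutant and control mice were compared with edgeR 4.0.16 (R 4.3.3): filterByExpr (count minimum 10), TMM, robust quasi-likelihood test and Benjamini-Hochberg adjustment over all genes tested, called at an adjusted p under 0.05. DESeq2 1.42.0 and limma 3.58.1 (voom) were alternatives. The script was tested on simulated data. The simulated mice varied less than the members did here, so that test does not show how well changes in the members would be found. Shares and ratios used exact permutation tests. Mice were not described as separate litters or batches. Without the block, p-values set the group difference against the spread between these libraries within groups. With the block, they set it against the spread of the differences within pairs.

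Same-numbered libraries deviated together (Pearson r over 18126 genes of 0.154, 0.212 and 0.465, each above the limit of 0.1; without muscle genes 0.151, 0.171 and 0.427), although control mouse 2 and mutant mouse 1 reached 0.202. The pairing comes from the titles' numbers and the data.

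Members and lists were chosen with earlier results of these data known. Values per library were given for the 3 members of each class highest per kb, for up to 12 called members by smallest p and for tested isoforms. In other lists, up to 3 genes with the smallest p with the block were named.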

Additional observations from a re-analysis of the deposited data

How the results depend on the processing

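Without the block, no member or other muscle gene passed its threshold under any scaling, filter or tool tried. All 37 members kept a positive log2 difference under each of these that gave a value. With the replicate block 15 members and 22 other muscle genes were called. Without pair 1 these were 15 and 9. Without pair 2 they were 17 and 25, and of the 25 other muscle genes 24 were higher in mutants and 1 was lower. Without pair 3 the other muscle genes fell to 1. Without pair 1 the block value was -0.25 for Tnnt1 and -0.15 for Atp2a2, and without pair 2 it was -0.04 for Tnnc1. For the muscle share and the make-up measures no call was possible, with pairs or without. The smallest possible p is 0.1 in the exact permutation test of 3 against 3 and 0.25 in the exact sign-flip test of 3 pairs. The marker calls that the block added are given above.

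Leaving out single mice turned directions, and the cause was not tested. The log2 difference of the muscle share then ranged from -0.10 to 1.33 and that of the slow to fast ratio from -0.34 to 0.58. With troponin and light chain genes alone the latter was -0.21. Ranges were -0.561 to 3.93 for the Myh2 share (percentage points), -0.179 to 0.933 for the Myh7 share (percentage points), -0.81 to 0.32 for the Tnni1 to Tnni2 ratio, -1.13 to 0.07 for the Tnnt1 to Tnnt3 ratio, -1.02 to 0.31 for the Tnnc1 to Tnnc2 ratio, -0.60 to 0.03 for the Casq2 to Casq1 ratio. For single genes they were -0.53 to 0.89 for Myh4, -0.10 to 1.52 for Myl1, -0.02 to 1.42 for Tnnt3, -0.19 to 1.16 for Tnni2, -0.27 to 1.38 for Tnnc2, -0.29 to 1.13 for Actn3, -0.07 to 1.17 for Atp2a1, -0.40 to 1.06 for Pvalb, -0.28 to 1.10 for Mybpc2, -0.37 to 1.02 for Casq1, -0.06 to 0.15 for Atp2a2, -0.27 to 0.64 for Casq2, -0.04 to 1.64 for Acta1, -0.26 to 0.41 for Tpm1, -0.03 to 1.36 for Tpm2, -0.15 to 0.78 for Ttn, -0.06 to 1.01 for Neb, -0.04 to 1.33 for Ckm, -0.07 to 0.95 for Ryr1. Exon-union lengths and slow genes without Mybpc1, both chosen after seeing the data, changed no direction. Slow and developmental genes with under 20 counts in mouse 3 limit what depth can show.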
